A study of Mus musculus with 57 samples.

Results

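The genes described here are 9 transcription factors and feedback genes of the integrated stress response (ISR), Atf4, Atf5, Ddit3, Trib3, Atf3, Cebpb, Cebpg, Nupr1 and Chac1, taken by gene symbol from the 52853 genes of 3 deposited count tables. All 9 were present in each table and passed the low-count filter in each comparison. The tissue came from male C57BL/6J mice that were either wild-type (WT) littermates or homozygous Mfn2-R707W knock-ins (KI), which carry an arginine-to-tryptophan change in the endogenous gene for mitofusin 2, a fusion protein of the outer mitochondrial membrane. The KI line derives from a single CRISPR-edited founder, the change is present in every tissue, and the allele also carries a silent base change that makes a restriction site. From 5 weeks of age the mice were fed a high-fat diet (HFD, 45% of energy as fat) or chow for 6 months. Inguinal white adipose tissue (WAT) was measured on HFD in 8 WT and 8 KI mice and on chow in 7 WT and 6 KI mice, and brown adipose tissue (BAT) was measured on HFD in 6 WT and 6 KI mice. Replicates are separate mice.

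The ISR is set off when one of the kinases that sense amino acid shortage, unfolded protein in the endoplasmic reticulum (ER), haem shortage, double-stranded RNA or mitochondrial trouble phosphorylates the translation factor eIF2α. Most translation then slows while the mRNA of Atf4 is translated better, and the ATF4 protein, paired with C/EBP partners, switches on genes for amino acid supply, further transcription factors such as CHOP (the product of Ddit3), and genes such as Trib3 that damp the response. Much of the control of Atf4 and Atf5 is translational, so their mRNA levels describe only part of their activity.

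ATF4 paired with a C/EBP protein binds a composite element with the letters TGATGNAA, where N is any base. RefSeq promoter windows (GRCm38.p6, 250 bases before to 50 bases after each transcription start) were found for all 9 genes (2 windows for Atf5) and searched on both strands. The element was present in the windows of 4 of the 9 genes, against 3.97% of 32851 windows in all, and each match lay on the strand opposite to the gene. These 4 stretches are printed in the direction of the gene, with the match in capitals. Neither window of Atf5, which rose in all 3 comparisons below, held a match. Whether the element goes with the size of a change was not tested.
Trib3, chr2:152344028-152344057, minus strand: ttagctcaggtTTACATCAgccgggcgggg
Atf3, chr1:191183396-191183483, minus strand: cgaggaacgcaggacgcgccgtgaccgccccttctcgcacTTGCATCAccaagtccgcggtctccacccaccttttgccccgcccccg
Nupr1, chr7:126625533-126625620, minus strand: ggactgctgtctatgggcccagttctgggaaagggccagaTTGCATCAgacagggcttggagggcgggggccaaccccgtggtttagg
Chac1, chr2:119351009-119351096, plus strand: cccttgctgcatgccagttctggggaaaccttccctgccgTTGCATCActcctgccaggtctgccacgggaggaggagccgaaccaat
The match began 110 bases before the RefSeq start in both Atf3 and Nupr1, 193 bases before it in Chac1, and at base 15 after it in Trib3. The cyclic AMP response element TGACGTCA was in none of the 9 genes' windows, against 1.79% of all windows, and the ER stress response element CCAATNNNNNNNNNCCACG was likewise in none, against 0.119%. A match is a description of letters in a window and says nothing of binding in these tissues, and the lack of one says only that these letters are not in this window.

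Reads had been counted over the exons of each gene in GRCm38. Atf4 lies at chr15:80255184-80257541, Ddit3 at chr10:127290829-127293753, Cebpb at chr2:167688915-167690418 and Chac1 at chr2:119351229-119354381, all on the plus strand. Atf5 lies at chr7:44812256-44816658, Trib3 at chr2:152337422-152344032, Atf3 at chr1:191170296-191218039, Cebpg at chr7:35046422-35056573 and Nupr1 at chr7:126623249-126630861, all on the minus strand. Ddit3 is listed under 2 gene identifiers with the same counts and was counted once. Atf5 overlaps Nup62 and Il4i1, Cebpb overlaps Tmem189, and Cebpg overlaps the antisense gene Gm45095 (45 to 162 counts per mouse on HFD), each on the opposite strand. Whether strand was used in counting is not given in the sources used here, so reads from these overlapping genes cannot be told apart from those of Atf5, Cebpb and Cebpg.

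Total counts per mouse ran from 17572752 to 25680411 in inguinal WAT on HFD, where 2 libraries of each mouse were pooled by the authors, from 8668279 to 11720458 on chow and from 8042591 to 10522554 in BAT. Chac1 had between 13 and 441 counts in a mouse. Adipocyte transcripts were abundant in every mouse, and the brown adipocyte uncoupling protein Ucp1 averaged 4762 counts scaled to library size (CPM) in BAT of WT mice and at most 0.700 CPM in any inguinal group. Mfn2 itself averaged 182 ± 24.0 CPM in WT mice and 230 ± 27.1 CPM in KI mice of inguinal WAT on HFD (SD, n = 8 per genotype). The log2 fold change of Mfn2 was 0.34 there (edgeR's quasi-likelihood test, adjusted p = 0.0114), just outside the threshold of 0.01, and 0.37 on chow (adjusted p = 0.0789). It was not called in any of the 3 comparisons, and the counts do not show the edited base. A few mice stood apart. Chow KI mouse 4 had a summed 70863 CPM of 10 skeletal muscle genes, against 43.7 to 794 in the other chow-fed mice. In BAT the sum was 2267 and 2614 CPM in WT mice 1 and 2, 693 CPM in KI mouse 6 and 5.47 to 139 CPM in the other mice, and in inguinal WAT on HFD it was 4725 and 2644 CPM in KI mice 3 and 5 and 55.1 to 1410 CPM in the others. Of 10 lymphocyte genes, the WT mice of inguinal WAT on HFD had a sum of 459 to 2020 CPM, KI mouse 2 one of 1337 CPM, within the WT range, and the other KI mice one of 82.5 to 168 CPM. Chow WT mouse 4 had sums of 3807 CPM for lymphocyte, 3121 CPM for macrophage and 164 CPM for epithelial genes. The other chow-fed mice had at most 1227, 1791 and 5.41 CPM. Its sum of adipocyte genes, 25132 CPM, was the lowest on chow. It was the lowest chow-fed WT mouse for Atf4, Atf5, Cebpb, Cebpg and Nupr1. The part of these genes in the results was not tested. To place each mouse, the comparison was refitted without it and the share of called genes (the 9 left out) in which it lay beyond every mouse of the other genotype was counted. This share was 67.4% for BAT KI mouse 6 and 84.7% to 97.5% for the other BAT KI mice, and it was 55.5% for KI mouse 2 of inguinal WAT on HFD, the lowest of that table. In bulk tissue, fewer cells of a type and less RNA per cell cannot be told apart.

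In inguinal WAT of HFD-fed mice, 7 of the 9 genes rose in KI mice, none fell, and the order of the rises was Trib3, Atf5, Ddit3, Atf4, Nupr1, Chac1 and Cebpg. Trib3 (fold 9.07) and Atf5 (fold 5.86) led the list, and Atf4 itself rose 2.09-fold. A gene is called, here and below, at a Benjamini-Hochberg adjusted p below 0.01 over all genes tested in edgeR's quasi-likelihood test. Over the 16471 genes tested, the share called was 6.21% for rises and 5.24% for falls. The 9 genes had a median log2 fold change of 1.05, against 0.01 over all genes. The genotypes were free of overlap, with the KI mice above, in 6 of the 9 genes, which held for 2.38% of all genes tested.

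Atf4, the central activator of the response, measured 117, 141 and 201 CPM (lowest, median and highest) in WT mice and 261, 307 and 347 CPM in KI mice on HFD. The 2 genotypes did not overlap, and the KI mice were close together, with a coefficient of variation of 7.81%. The log2 fold change was 1.06 ± 0.1 (SE, n = 8 per genotype, edgeR's quasi-likelihood test, adjusted p = 5.35e-07). Atf5, a relative of ATF4 that is tied to mitochondrial protein stress, measured 93.8, 131 and 235 CPM in WT mice against 496, 843 and 1050 CPM in KI mice. No KI mouse reached down to the highest WT mouse, and the lowest KI value came from KI mouse 2. The log2 fold change was 2.55 ± 0.172 (SE, edgeR's quasi-likelihood test, adjusted p = 1.07e-08).

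Ddit3, which encodes CHOP, a C/EBP-like factor that pairs with other bZIP proteins, measured 31.3, 38 and 49.6 CPM in WT mice against 75.2, 103 and 112 CPM in KI mice, a log2 fold change of 1.37 ± 0.104 (SE). Trib3, a pseudokinase that binds ATF4 and damps its activity, measured 9.62, 14.4 and 21.6 CPM in WT mice against 75.3, 130 and 204 CPM in KI mice, a log2 fold change of 3.18 ± 0.222 (SE). Both genes separated the genotypes completely, and Trib3 stood 4th among the 1023 genes called higher when ranked by fold change. Their adjusted p-values were 4.04e-08 for Ddit3 and 4.72e-08 for Trib3 (edgeR's quasi-likelihood test). Nupr1, a small stress-induced chromatin cofactor, measured 68.6, 90.4 and 124 CPM in WT mice against 158, 181 and 243 CPM in KI mice. It also separated the genotypes, with a log2 fold change of 1.05 ± 0.109 (SE, edgeR's quasi-likelihood test, adjusted p = 1.6e-06).

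The smaller changes were those of Cebpg, Chac1 and Cebpb. Cebpg, a partner with which ATF4 forms dimers, measured 72.4, 91.5 and 113 CPM in WT mice against 116, 128 and 140 CPM in KI mice. It rose by 0.45 ± 0.0789 on the log2 scale (SE, edgeR's quasi-likelihood test, adjusted p = 0.000446), and the genotypes did not overlap although the change was below 1.5-fold. Chac1, an enzyme that degrades glutathione and is a target of ATF4 and CHOP, measured 4.5, 8.18 and 15.0 CPM in WT mice against 12.4, 15.0 and 19.6 CPM in KI mice. Its log2 fold change was 0.78 ± 0.192 (SE, edgeR's quasi-likelihood test, adjusted p = 0.00662), and only 4 of the 8 KI mice lay above every WT mouse. This call rested on individual mice: it was lost without KI mouse 1, 3, 6 or 7 or without WT mouse 2, 3, 5 or 6, where the log2 fold change ranged from 0.72 to 0.79 and the adjusted p from 0.0117 to 0.0172. Cebpb, a C/EBP activator needed early in fat cell differentiation, had a log2 fold change of 0.33 ± 0.120 (SE, edgeR's quasi-likelihood test, adjusted p = 0.0567) and was not called. Atf3, a stress-induced factor of the ATF and CREB family, pointed the other way. It measured 9.86, 26.2 and 42.0 CPM in WT mice against 7.47, 12.1 and 31.1 CPM in KI mice, a log2 fold change of -0.83 ± 0.353 (SE, edgeR's quasi-likelihood test, adjusted p = 0.112) that was not called.

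**Figure D1:**
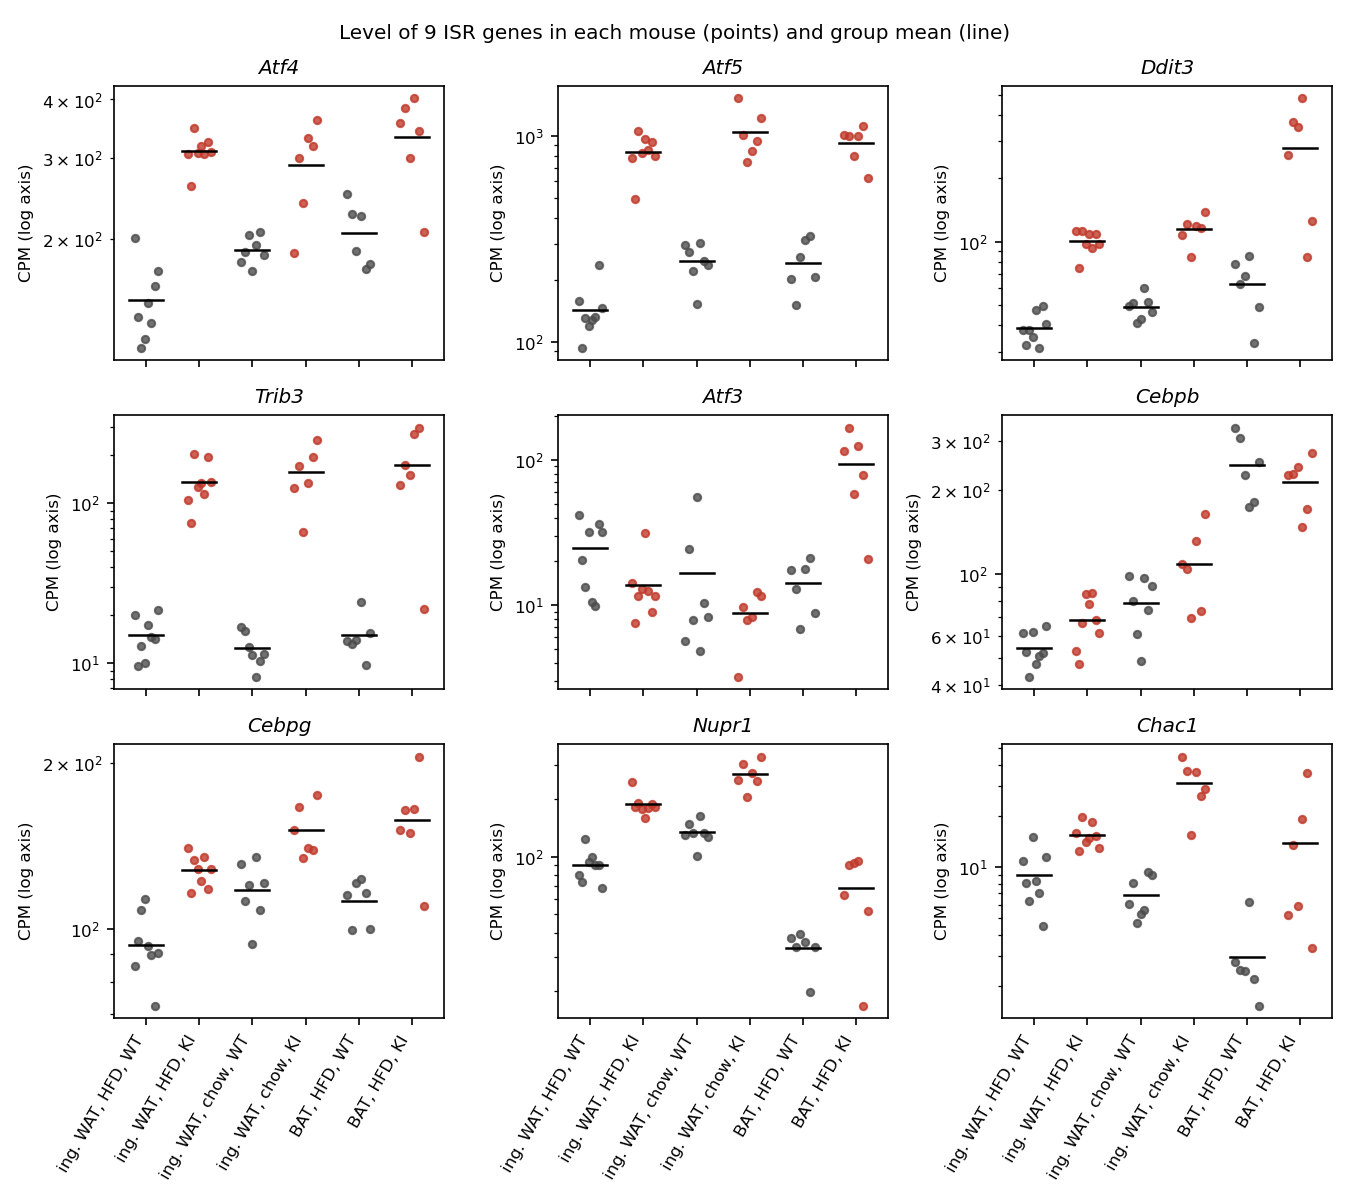
Level of each gene in CPM (log axis) in every mouse (points) and the group mean (line), for WT (grey) and KI (red) mice in inguinal WAT on HFD, inguinal WAT on chow and BAT on HFD. In the Trib3 panel the KI mice of inguinal WAT sit between 66.2 and 249 CPM and the WT mice between 8.23 and 21.6 CPM, while BAT KI mouse 6 lies among the WT mice at 21.8 CPM.

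In inguinal WAT of chow-fed mice, 5 of the 9 genes rose in KI mice (Trib3, Chac1, Atf5, Ddit3 and Nupr1) and none fell. Over the 14629 genes tested, the share called was 2.06% for rises and 1.22% for falls. Each of these 5 genes had every KI mouse above every WT mouse, which held for 2.86% of all genes, and the median over the 9 genes was 1.00 on the log2 scale, against -0.00 over all genes. The count was 5 also without chow KI mouse 4, the mouse with muscle transcripts, and it was 6 without KI mouse 1 or 3.

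Trib3 had the largest change on chow, from 8.23, 11.4 and 16.9 CPM (lowest, median and highest) in WT mice to 66.2, 153 and 249 CPM in KI mice. Its log2 fold change was 3.65 ± 0.274 (SE, n = 7 WT and 6 KI, edgeR's quasi-likelihood test, adjusted p = 7.01e-06). Chac1 came second, with 4.68, 6.06 and 9.36 CPM in WT mice against 15.5, 32.6 and 44.5 CPM in KI mice, a log2 fold change of 2.19 ± 0.233 (SE, edgeR's quasi-likelihood test, adjusted p = 8.95e-05). Neither gene overlapped between the genotypes, and KI mouse 3 was the lowest KI mouse for both. Atf5 measured 153, 247 and 302 CPM in WT mice against 748, 978 and 1516 CPM in KI mice, a log2 fold change of 2.08 ± 0.185 (SE). Ddit3 measured 41.0, 49.4 and 60.2 CPM in WT mice against 85.0, 117 and 138 CPM in KI mice, a log2 fold change of 1.23 ± 0.111 (SE). Nupr1 measured 101, 133 and 163 CPM in WT mice against 205, 261 and 331 CPM in KI mice, a log2 fold change of 1.00 ± 0.123 (SE). The adjusted p-values of these 3 genes were 1.45e-05, 1.6e-05 and 0.000215 (edgeR's quasi-likelihood test), and all 3 were called in every one of the 13 fits that left out 1 mouse.

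Atf4 on chow lay at the threshold. It measured 171, 188 and 207 CPM in WT mice against 187, 309 and 362 CPM in KI mice, a log2 fold change of 0.61 ± 0.131 (SE, edgeR's quasi-likelihood test, adjusted p = 0.0101). The WT mice were tightly grouped, 5 of the 6 KI mice lay above all of them, and KI mouse 1, at 187 CPM, lay within their range. Without KI mouse 1 the log2 fold change was 0.70 (edgeR's quasi-likelihood test, adjusted p = 0.00112), and without KI mouse 3 it was 0.66 (adjusted p = 0.00881). The same KI mouse 1 had the highest Atf5 (1516 CPM) and Chac1 (44.5 CPM) and the lowest Atf3 (3.20 CPM) of the chow-fed KI mice, and also the highest summed brown adipocyte markers (935 CPM) of the chow-fed mice. The part of these markers in the result was not tested. Cebpg (log2 fold change 0.36 ± 0.0947, SE, adjusted p = 0.0283), Cebpb (0.46 ± 0.210, adjusted p = 0.189) and Atf3 (-0.93 ± 0.567, adjusted p = 0.339) were not called by edgeR's quasi-likelihood test.

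In BAT of HFD-fed mice, 4 of the 9 genes rose in KI mice (Trib3, Atf3, Ddit3 and Atf5) and none fell. Over the 13267 genes tested, rises made up 1.36% and falls 0.475%. The 9 genes had a median log2 fold change of 1.93, against -0.01 over all genes. Only Atf5 of the 9 had every KI mouse above every WT mouse, which held for 2.26% of all genes. Single KI mice lay within or below the WT range for Trib3, Atf3, Atf4 and Cebpg (mouse 6) and for Ddit3 and Nupr1 (mouse 5). The count of 4 depended on single mice: it was 6 without KI mouse 6, 3 without WT mouse 5 or KI mouse 3, 4 without KI mouse 5, and 2 without any one of the other mice.

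Atf5 measured 151, 233 and 326 CPM (lowest, median and highest) in BAT of WT mice and 621, 996 and 1119 CPM in KI mice. The log2 fold change was 1.93 ± 0.193 (SE, n = 6 per genotype, edgeR's quasi-likelihood test, adjusted p = 3.4e-05), and it was called in all 12 fits that left out 1 mouse. Trib3 measured 9.69, 13.8 and 24.2 CPM in WT mice against 21.8, 162 and 298 CPM in KI mice, a log2 fold change of 3.54 ± 0.514 (SE, edgeR's quasi-likelihood test, adjusted p = 0.00245). KI mouse 6, at 21.8 CPM, fell short of the highest WT mouse, and the other 5 KI mice were at 130 CPM or more. Trib3 was also called in all 12 of these fits, with the largest adjusted p at 0.00982.

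Atf3 and Ddit3 changed strongly but varied widely between mice. Atf3 measured 6.85, 15.2 and 21.2 CPM in WT mice against 20.6, 97.0 and 167 CPM in KI mice, a log2 fold change of 2.73 ± 0.458 (SE, edgeR's quasi-likelihood test, adjusted p = 0.0058). The call was kept without WT mouse 5, KI mouse 3 or KI mouse 6 and lost without any other mouse, with log2 fold changes from 2.51 to 2.95 and adjusted p-values up to 0.0174. Ddit3 measured 32.9, 65.8 and 85.6 CPM in WT mice against 84.7, 305 and 480 CPM in KI mice, a log2 fold change of 2.15 ± 0.399 (SE, edgeR's quasi-likelihood test, adjusted p = 0.00851). Its call was kept without KI mouse 5 or 6 and lost without any other mouse, with log2 fold changes from 1.92 to 2.35 and adjusted p-values up to 0.0257. Without the low-count filter neither gene was called in BAT (edgeR's quasi-likelihood test, adjusted p = 0.0138 for Atf3 and 0.0258 for Ddit3). The immediate early genes, a list of rapidly induced genes such as Fos and Egr1 with which Atf3 is often grouped, had 0 of 22 tested genes called in BAT by edgeR's quasi-likelihood test, 5 at an unadjusted p below 0.05 and 3 called by DESeq2. Their summed level ran from 958 to 1651 CPM in WT mice against from 867 to 2005 CPM in KI mice.

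The remaining genes in BAT were not called. Atf4 measured 173, 207 and 250 CPM in WT mice against 207, 349 and 402 CPM in KI mice, a log2 fold change of 0.68 ± 0.153 (SE, edgeR's quasi-likelihood test, adjusted p = 0.0148). KI mouse 6 was the lowest KI mouse for Atf4, Atf5, Trib3, Atf3, Cebpg and Chac1, and without it Atf4 passed the threshold with a log2 fold change of 0.80 (adjusted p = 0.00114) and Cebpg with 0.58 (adjusted p = 0.00644). With it, Cebpg had a log2 fold change of 0.48 ± 0.128 (SE, edgeR's quasi-likelihood test, adjusted p = 0.0329). Chac1 had 1.53, 2.46 and 6.23 CPM in WT mice against 3.36, 9.71 and 35.7 CPM in KI mice, and its log2 fold change of 2.23 ± 0.576 (SE, edgeR's quasi-likelihood test) had an adjusted p of 0.0371. Cebpb had a log2 fold change of -0.20 ± 0.181 (SE, edgeR's quasi-likelihood test, adjusted p = 0.529).

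BAT KI mouse 5 split the genes. It had the highest Trib3 (298 CPM), Chac1 (35.7 CPM), Atf5 (1119 CPM) and Cebpg (205 CPM) of the BAT KI mice. It also had the lowest Ddit3 (84.7 CPM) and Nupr1 (16.7 CPM), the latter below every WT mouse. Nupr1 measured 19.7, 34.8 and 39.3 CPM in WT mice against 16.7, 76.8 and 94.4 CPM in KI mice, a log2 fold change of 1.04 ± 0.334 (SE, edgeR's quasi-likelihood test, adjusted p = 0.0807). Without KI mouse 5 it was 1.25 (adjusted p = 0.00125). BAT WT mouse 5 had the lowest Nupr1 (19.7 CPM), Ddit3 (32.9 CPM) and Trib3 (9.69 CPM) of the WT mice and the highest Atf5 (326 CPM).

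**Figure D2:**
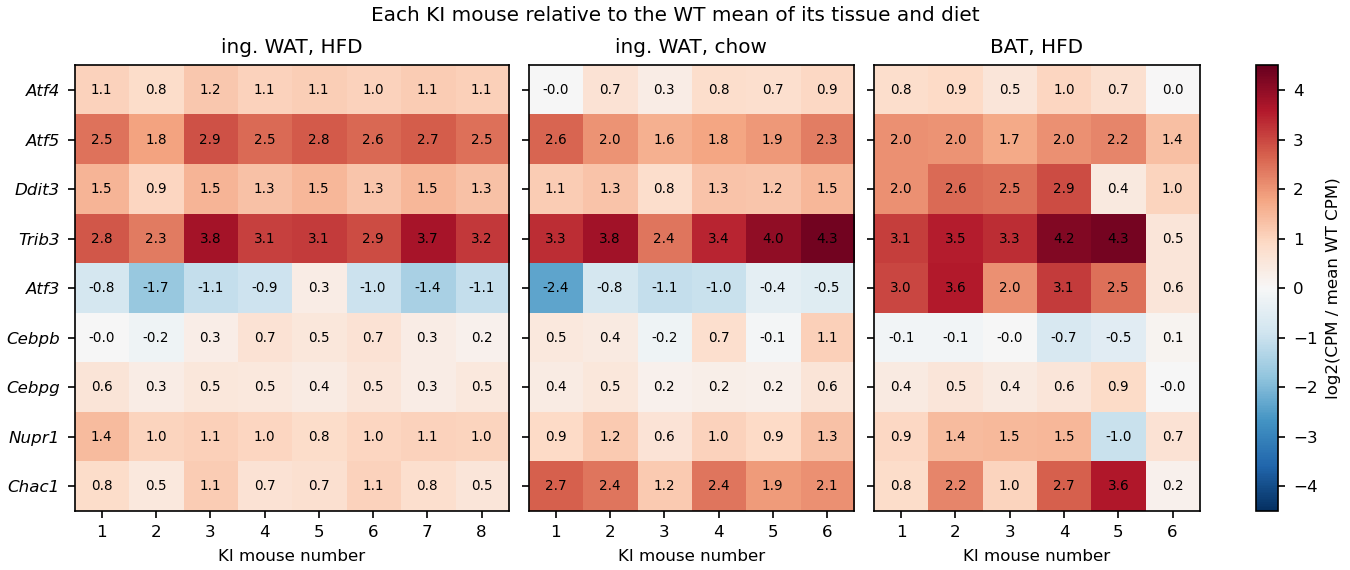
Each KI mouse (columns) as the log2 ratio of its CPM to the mean CPM of the WT mice of the same tissue and diet, for the 9 genes (rows). In BAT, mouse 6 is pale for most genes and mouse 5 has Trib3 and Chac1 high while Nupr1 is blue, whereas Trib3 and Atf5 are red in all 8 HFD-fed KI mice of inguinal WAT.

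The order of change among the 9 genes was tested within each comparison with 2-sided exact permutation tests of the difference between 2 genes in log2 CPM per mouse. Of the 36 pairs in each of the 3 comparisons, 80 in all differed in the size of their change at an adjusted p below 0.05 (Benjamini-Hochberg over all pairs), 29 of 36 in inguinal WAT on HFD, 29 of 36 on chow and 22 of 36 in BAT. On HFD, Trib3 changed more than Atf5 by 0.59 on the log2 scale (exact permutation p = 0.00202, adjusted p = 0.0045), Atf5 more than Ddit3 by 1.2 (exact permutation p = 0.000155, the smallest that these 12870 divisions allow, adjusted p = 0.00105), and Cebpb more than Atf3 by 1.07 (exact permutation p = 0.00544, adjusted p = 0.00963). Elsewhere, Atf4 and Nupr1 differed by 0.02 (exact permutation p = 0.923), Nupr1 and Chac1 by 0.22 (exact permutation p = 0.417) and Cebpg and Chac1 by 0.39 (exact permutation p = 0.0462, adjusted p = 0.0593), none of which passed.

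On chow the order at the top was Trib3, then Chac1 and Atf5 side by side, then Ddit3 and Nupr1. Trib3 exceeded Chac1 by 1.43 and Chac1 exceeded Nupr1 by 1.13 (exact permutation p = 0.000583 for each, the smallest that 1716 divisions allow, adjusted p = 0.00157). Atf5 and Chac1 differed by 0.06 (exact permutation p = 0.806). Atf4, Cebpb and Cebpg formed a lower group whose differences of 0.07 to 0.21 did not pass. In BAT the order at the top by this measure was Trib3, Atf3, Ddit3, Atf5 and Chac1, and no step between neighbours there passed. Trib3 and Atf3 differed by 0.65 (exact permutation p = 0.186) and Atf3 and Ddit3 by 0.58 (exact permutation p = 0.292). Ddit3 and Atf5 differed by 0.02 (exact permutation p = 0.965) and Atf5 and Chac1 by 0.13 (exact permutation p = 0.788). Trib3 exceeded Atf5 by 1.25 in BAT (exact permutation p = 0.0368, adjusted p = 0.0497), just inside the threshold, and Chac1 by 1.39 (exact permutation p = 0.00649, adjusted p = 0.011).

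**Figure D3:**
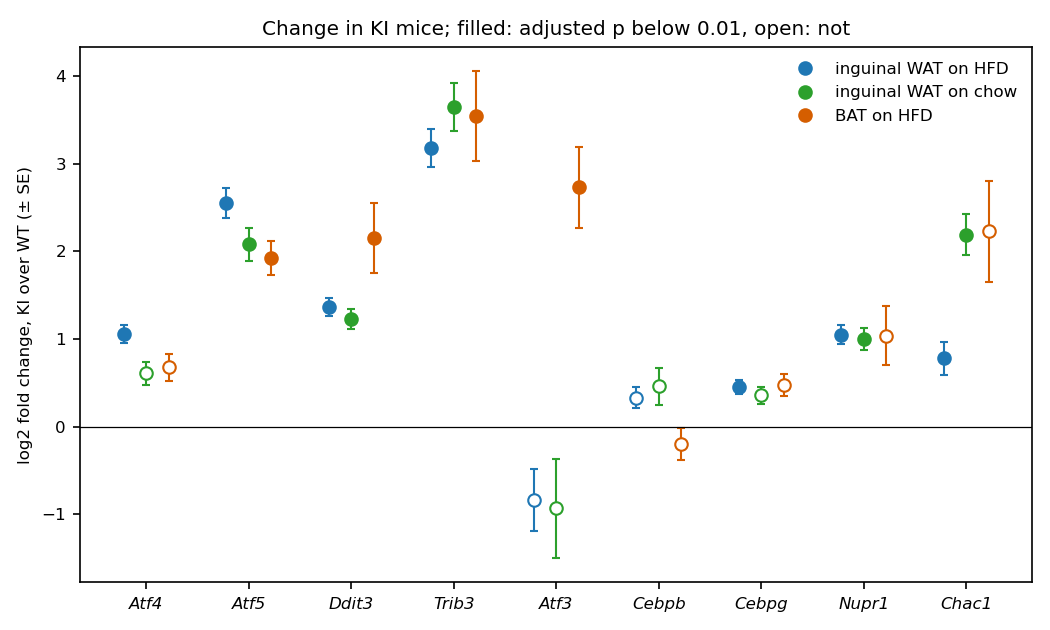
Log2 fold change of KI over WT with its SE for the 9 genes in inguinal WAT on HFD (blue), inguinal WAT on chow (green) and BAT on HFD (orange), filled where the adjusted p was below 0.01. Atf3 lies at -0.83 and -0.93 in inguinal WAT and at 2.73 in BAT, and Chac1 at 0.78 on HFD and 2.19 on chow.

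Whether the change depended on diet was tested as an interaction over 17400 genes, of which 0.845% were called by edgeR's quasi-likelihood test, and none of the 9 genes was. Chac1 came closest: its change was smaller on HFD than on chow by 1.39 on the log2 scale (difference -1.39, 95% interval from -1.99 to -0.78, edgeR's quasi-likelihood test, unadjusted p = 0.000103, adjusted p = 0.0117). It was called by DESeq2 and in 3 of the 29 fits that left out 1 mouse, without HFD WT mouse 7 (difference -1.49, adjusted p = 0.00397), chow KI mouse 3 (-1.54, adjusted p = 0.00405) or chow KI mouse 5 (-1.43, adjusted p = 0.00905). Atf4 was the other gene with an unadjusted p below 0.05, at 0.00829, with a change larger on HFD by 0.48 (95% interval 0.15 to 0.80, edgeR's quasi-likelihood test, adjusted p = 0.125). Atf4 averaged 148 ± 27.9 CPM in WT mice on HFD and 190 ± 12.9 CPM on chow, while KI mice averaged 309 ± 24.2 and 289 ± 64.9 CPM (SD). The 2 diets were counted in separate tables, so levels set across them are descriptions. For Nupr1 the interval of the difference ran from -0.26 to 0.40, for Ddit3 from -0.15 to 0.47 and for Trib3 from -1.13 to 0.22.

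Whether the change depended on the tissue was tested likewise for BAT against inguinal WAT on HFD over 17214 genes, of which 2.82% were called, and Atf3 was the 1 gene of the 9 called. Its change was higher in BAT by 3.59 on the log2 scale (95% interval 2.44 to 4.75, edgeR's quasi-likelihood test, adjusted p = 0.000369), and it was called in all 28 fits that left out 1 mouse. Among BAT KI mice 5 of 6 lay above every BAT WT mouse for Atf3. In inguinal WAT 2 of the 8 HFD-fed KI mice lay below every WT mouse and 7 of the 8 below the WT mean, and the change there was not called. The other 8 genes were not called, with unadjusted p-values below 0.05 for Ddit3 (0.81 larger in BAT, interval 0.10 to 1.52), Chac1 (1.49 larger, interval 0.41 to 2.57), Atf5 (BAT minus inguinal WAT -0.59, interval -1.10 to -0.08) and Cebpb (-0.49, interval -0.92 to -0.06). The sources used here do not tell if any mouse gave both tissues, and the test took them as independent. The comparison shares its inguinal WAT mice on HFD with the comparison of diets.

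Levels per length, as library-scaled reads per kilobase (RPKM) with all tables scaled together, give the order of the 6 groups. For Atf4 the KI groups of BAT, HFD and chow had 186 ± 37.9, 115 ± 9.83 and 113 ± 25.5 RPKM (SD). BAT of WT mice, at 113 ± 15.5 RPKM, matched the chow-fed KI mice, and WT mice on chow (74.0 ± 5.48) and HFD (55.1 ± 10.5) came last. For Atf5 the KI groups of BAT, chow and HFD came first, at 614 ± 120, 484 ± 133 and 368 ± 74.1 RPKM (SD), followed by the WT groups in the order BAT (158 ± 47.1), chow (114 ± 24.1) and HFD (62.9 ± 18.5). For Trib3 the KI groups came in the same order, at 109 ± 63.3, 68.0 ± 27.9 and 56.1 ± 18.2 RPKM, with all WT groups below 10 RPKM on average. Between neighbours in that order only the step from KI mice on HFD (lowest 30.0 RPKM) to WT BAT (highest 14.8 RPKM) was free of overlap for Trib3, and none was for Atf5. Ddit3 was highest in BAT KI mice, at 215 ± 115 RPKM, and the other groups averaged 61.5 RPKM or less. Atf3 stood at 57.7 ± 31.6 RPKM in BAT KI mice and at 10 RPKM or less on average in the other 5 groups, whose neighbours all overlapped.

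Cebpb averaged 210 ± 52.1 and 189 ± 41.8 RPKM in BAT of WT and KI mice and 31.7 to 66.4 RPKM in the 4 inguinal groups, and the lowest BAT mouse (127 RPKM) lay above the highest chow-fed KI mouse (101 RPKM). Nupr1 ran from 98.1 ± 16.9 RPKM in chow-fed KI mice to 17.1 ± 3.53 RPKM in BAT of WT mice, with BAT of KI mice (mean 35.9 RPKM, range 9.02 to 49.5) between the inguinal WAT of chow-fed WT mice (48.9 ± 7.37 RPKM) and that of HFD-fed WT mice (31.4 ± 5.93 RPKM). Chac1 was the lowest of the 9 genes per length in 4 of the 6 groups, among them BAT of WT mice at 2.32 ± 1.32 RPKM. Its highest mean was 17.6 ± 5.74 RPKM in chow-fed KI mice, where Atf3 was lower at 3.76 ± 1.4 RPKM. Cebpg ran from a mean of 14.6 RPKM in WT mice on HFD to 37.1 ± 7.54 RPKM in BAT KI mice.

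Co-variation between mice was examined within each group, to keep the difference between genotypes out of it, as Pearson's r of log2 CPM for the 36 pairs of genes in each of 6 groups. Of these correlations 157 were positive and 37 had an exact permutation p below 0.05, but none passed at an adjusted p below 0.05 over all of them, and none did by Spearman's rho. The median r was 0.43 in KI and 0.13 in WT mice of inguinal WAT on HFD, 0.57 and 0.17 on chow, and 0.41 and 0.28 in BAT, and whether genotypes differ in this was not tested. With 6 to 8 mice in a group these values are descriptions.

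The smallest p was that of Atf4 with Trib3 in KI mice of inguinal WAT on HFD (r = 0.93, n = 8, exact permutation p = 0.000248, adjusted p = 0.0536, rho = 0.95, exact permutation p = 0.00114, adjusted p = 0.246). Without the 2 mice farthest from the median in Atf4, r was 0.88. In BAT KI mice the same pair had r = 0.90 (n = 6, exact permutation p = 0.0472, adjusted p = 0.278, rho = 0.54, exact permutation p = 0.297, adjusted p = 0.666), and r was 0.09 without the 2 farthest mice, so it rested on those mice. Ddit3 with Nupr1 was positive in all 6 groups, with r = 0.94 in chow-fed KI mice (exact permutation p = 0.00278, adjusted p = 0.114, rho = 0.94, exact permutation p = 0.0167, adjusted p = 0.36). In BAT KI mice r was 0.92 (exact permutation p = 0.00278, adjusted p = 0.114, rho = 0.94, exact permutation p = 0.0167, adjusted p = 0.36). Without the 2 farthest mice these were 0.71 and 0.88. In KI mice of inguinal WAT on HFD the pair had r = 0.29 (exact permutation p = 0.387, adjusted p = 0.633, rho = 0.67, exact permutation p = 0.0831, adjusted p = 0.462).

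**Figure D4:**
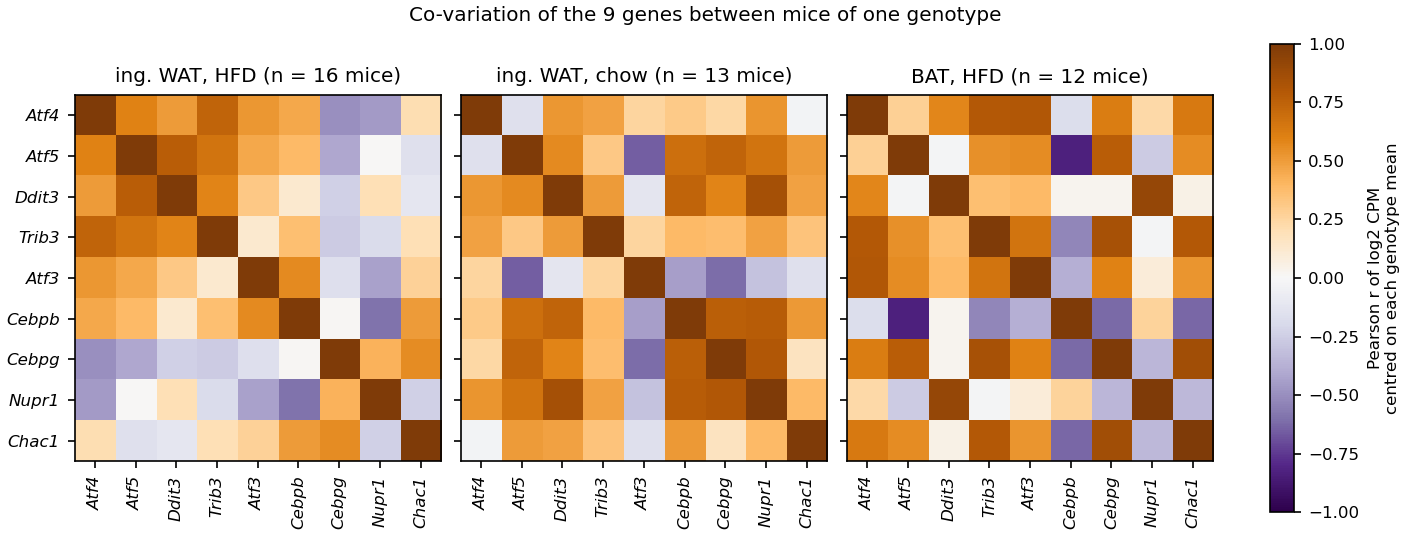
Pearson's r between the 9 genes over mice, with log2 CPM centred on the mean of each genotype, in inguinal WAT on HFD, inguinal WAT on chow and BAT on HFD. Ddit3 with Nupr1 is dark in chow-fed inguinal WAT (0.85) and in BAT (0.91) and pale on HFD (0.20), and Cebpb is opposed to Atf5 in BAT (-0.83) but not in inguinal WAT (0.39 on HFD and 0.68 on chow).

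Over all 41 mice, with log2 CPM centred on the mean of each of the 6 groups, the genes that followed each of the 9 most closely among 13025 genes were listed, 3 for each. This is a description over mice that share tables and tissues, and the median r over all genes was between -0.01 and 0.01. Of the 27 genes so named, 4 were on the lists of ISR effectors or eIF2 regulators used below: Ppp1r15a with Atf4 (r = 0.71), Cars with Ddit3 (r = 0.86), and Fgf21 and Xpot with Chac1 (r = 0.75 and 0.71). Atf4 was also followed by Dusp8 (r = 0.75) and Polr3d (r = 0.72), and Ddit3 by Fam50a (r = 0.82) and Kif3a (r = 0.80). Trib3 was followed by the autophagy receptor Sqstm1 (r = 0.81), by E230016M11Rik (r = 0.76) and by Gabarapl1 (r = 0.75), and Atf5 by Spg21, Creld1 and Bcl7b (r = 0.77, 0.77 and 0.76). Nupr1 was followed by Drosha, Odr4 and Syf2 (r = 0.90, 0.90 and 0.88). Cebpb had r = 0.92 with Tmem189, the gene that it overlaps, and 0.83 and 0.73 with Ppp1r37 and Mpst. Atf3 was followed by Rab7b, Tubb2a and Tgif1 (r = 0.81, 0.78 and 0.76), Cebpg by Ypel5, Ptp4a1 and Gpat3 (r = 0.77, 0.75 and 0.73), and Chac1, besides the 2 named, by Cyb5r1 (r = 0.70). These values are over all mice together, and some did not hold in every group. Within single groups r ran from -0.11 to 0.98 for Ppp1r15a with Atf4, from -0.34 to 0.99 for Gpat3 with Cebpg and from 0.78 to 0.99 for Tmem189 with Cebpb.

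The upstream and feedback steps of the pathway were read from 17 genes. These were the genes for eIF2 kinases, phosphatase subunits and parts of the eIF2 and eIF2B complexes, together with Dele1, Oma1 and Impact. In KI mice 4 of 17 rose in inguinal WAT on HFD, 1 of 17 on chow and 3 of 17 in BAT, and none fell. Over all genes tested, 6.21%, 2.06% and 1.36% were called higher. Ppp1r15a, the inducible subunit that directs the phosphatase to eIF2α and so closes the feedback loop, rose in each: from 22.5 to 47.7 CPM on average on HFD (log2 fold change 1.08, edgeR's quasi-likelihood test, adjusted p = 1.55e-05), from 18.2 to 38.2 CPM on chow (1.07, adjusted p = 0.00025) and from 17.0 to 49.8 CPM in BAT (1.55, adjusted p = 0.00304). The median of the list was 0.03, 0.15 and 0.17 on the log2 scale. None of the 4 kinase genes Eif2ak1 to Eif2ak4, nor the genes for the mitochondrial relay proteins Dele1 and Oma1, was called in any comparison, and kinase activity is not read from mRNA.

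Of 48 ISR effector genes outside the 9, commonly cited targets of ATF4 and CHOP such as amino acid enzymes, transporters and tRNA synthetases, 23 of 47 tested rose in inguinal WAT on HFD, 15 of 46 on chow and 16 of 43 in BAT, and none fell (background 6.21%, 2.06% and 1.36% of all genes called higher). Their median log2 fold changes were 0.45, 0.52 and 0.77. Mthfd2, a mitochondrial folate enzyme, had the largest called rise of this list in inguinal WAT, from 9.83 to 52.8 CPM on HFD (log2 fold change 2.42, edgeR's quasi-likelihood test, adjusted p = 6.27e-10) and from 9.54 to 60.7 CPM on chow (2.66, adjusted p = 3.16e-05). In BAT this place was taken by Gadd45a, a growth arrest gene, from 5.70 to 90.7 CPM (3.99, edgeR's quasi-likelihood test, adjusted p = 0.00143). Without some of the mice that stood apart the counts were 24 of 47 (without HFD KI mouse 2), 13 of 46 (without chow KI mouse 4) and 21 of 43 (without BAT KI mouse 6, where 1 gene of the list fell). The background was then 7.47%, 1.73% and 1.8%. The lists were not counted without chow WT mouse 4.

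Of 24 genes of the ER unfolded protein response, the chaperones and sensors of its ATF6 and XBP1 branches, 3 rose and 1 fell in inguinal WAT on HFD, 1 of 24 rose on chow and 2 of 23 in BAT, with medians of 0.10, 0.05 and -0.02. Over all genes tested, 6.21% were called higher and 5.24% lower on HFD, 2.06% and 1.22% on chow, and 1.36% and 0.475% in BAT. The ATF and CREB genes and the immediate early genes below have the same background. The called rises were led by the transcription factor gene Xbp1 on HFD (log2 fold change 0.41, edgeR's quasi-likelihood test, adjusted p = 0.000871), by the degradation factor Sel1l on chow (0.49, adjusted p = 0.00556) and by Edem1 in BAT (0.71, adjusted p = 0.00757), and the fall was that of Derl2 (-0.25, adjusted p = 0.000689). Of 17 other ATF and CREB family genes, 5 rose and 1 fell on HFD, led by Creb3l1 (0.97, edgeR's quasi-likelihood test, adjusted p = 7.3e-06) and Crem (-0.32, adjusted p = 0.00486). On chow only Atf1 rose (0.41, edgeR's quasi-likelihood test, adjusted p = 0.00717), and in BAT 0 of 14 tested genes were called (6 at an unadjusted p below 0.05, and 1 by DESeq2). Of the immediate early genes, 0 of 23 were called on HFD (6 at an unadjusted p below 0.05, and 4 by DESeq2) and 1 of 23 on chow, which was Ier3 (0.84, edgeR's quasi-likelihood test, adjusted p = 0.00355).

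Apart from the ATF and CREB genes above, of which some were called, relatives of the 9 genes by family or by name were 6 genes in 3 lists. None of these 6 was called in any comparison by edgeR's quasi-likelihood test. In that test 2 on HFD, 1 on chow and 4 in BAT had an unadjusted p below 0.05. DESeq2 called 1, a gene of the C/EBP list on HFD. Cebpz was grouped with the C/EBP genes by name only. The log2 fold changes of Cebpa, Cebpd and Cebpz in inguinal WAT on HFD were 0.50 (edgeR's quasi-likelihood test, adjusted p = 0.0196), 0.23 and 0.11. They were -0.05, -0.28 and 0.05 on chow, and -0.56, -0.19 and 0.02 in BAT. Cebpe was too low to be tested in any table. The Tribbles genes Trib1 and Trib2 had 0.04 and -0.01 on HFD, 0.14 and 0.06 on chow and -0.47 and -0.34 in BAT, beside rises of 3.18 to 3.65 for Trib3. The second cytosolic glutathione-degrading enzyme of its family, Chac2, had 0.27, 0.32 and 0.45, beside 0.78, 2.19 and 2.23 for Chac1.

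**Figure D5:**
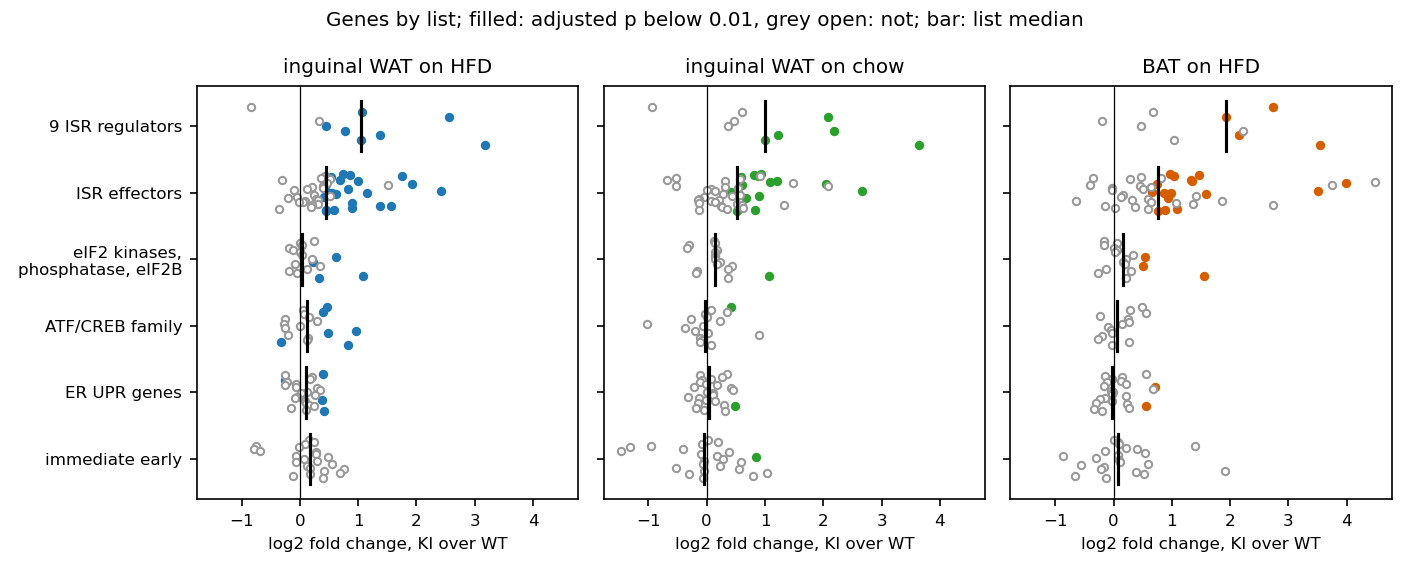
Log2 fold change of KI over WT for each gene of the 9 ISR regulators and of 5 further lists in the 3 comparisons, filled where the adjusted p was below 0.01, with the median of each list as a bar. The medians of the ISR effectors lie at 0.45, 0.52 and 0.77, and those of the ER unfolded protein response genes at 0.10, 0.05 and -0.02.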

How the data were processed

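The deposited files hold raw counts per gene, with 1 column per mouse in each of 3 tables (41 columns) of 54838 entries. According to the labels and the methods, the authors trimmed poly-A RNA reads with cutadapt, aligned them with STAR to GRCm38, handled alignments with SAMtools and made the deposited counts with featureCounts, and 2 libraries of each mouse of inguinal WAT on HFD share a column. The 1884 entries without values were left out, and the first of the entries sharing a symbol (200 entries of 99 symbols, with equal counts) was kept.

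Each comparison of KI with WT was fitted on its own over all genes past filterByExpr, with edgeR 4.0.16 in R 4.3.3 (TMM scaling, robust quasi-likelihood, genotype only, Benjamini-Hochberg, threshold 0.01). Each SE was obtained by dividing the size of the log2 fold change by the root of its F statistic. Differences between diets and tissues were interaction contrasts, with 95% intervals from the SE. CPM are TMM-scaled, and log2 CPM used a prior count of 2. Pairs of genes were compared by exact permutation in Python 3.11.15 (scipy 1.17.1). Promoter windows were those of RefSeq GRCm38.p6.

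The alternatives were DESeq2 1.42.0, RLE factors, total counts as library size, no filter, mitochondrially encoded genes left out, one fit of all 6 groups, a replicate block, a prior count of 0.5 and each mouse left out. Counts of the ISR effector, eIF2, ER, immediate early and ATF/CREB lists without some of the mice that stood apart were added after the data had been seen. The 9 genes and all lists were chosen with earlier results of these data known. The genes named outside the 9 were Mfn2, the called gene of each list with the largest rise and the largest fall in each comparison, every gene of the C/EBP, Tribbles and gamma-glutamylcyclotransferase lists (Cebpz by name only), and the 3 genes most alike to each of the 9. Dele1, Oma1, Impact, the eIF2 kinases, Fos, Egr1, Ucp1, Cox8b, Cox7a1, Ppargc1a, Ebf2, Elovl3, Dio2 and Zic1 are named in addition, chosen after their values were seen. The scripts were tested on simulated data. No protein sequence was used here.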

Additional observations from a re-analysis of the deposited data

Results flagged for a closer look

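Atf3 responded differently in the 2 tissues of HFD-fed mice. The log2 fold change in BAT minus that in inguinal WAT was 3.59 (edgeR's quasi-likelihood test of the interaction, adjusted p = 0.000369, called in all 28 fits that left out 1 mouse), from 2.73 in BAT and -0.83 in inguinal WAT. The change in inguinal WAT was not called on its own (edgeR's quasi-likelihood test, adjusted p = 0.112).

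Among the 54 combinations of gene and group, 6 held a mouse far from the others by Dixon's test, while chance alone flags about 1 in 20. Atf5 in WT mouse 7 of inguinal WAT on HFD was the highest of 8 at 235 CPM, with the next at 158 CPM. Atf3 in KI mouse 5 of inguinal WAT on HFD was the highest of 8 at 31.1 CPM, with the next at 14.2 CPM, and that mouse had the highest summed macrophage markers of the table (2112 CPM). Nupr1 in KI mouse 1 of inguinal WAT on HFD was the highest of 8 at 243 CPM, with the next at 189 CPM. Atf3 in chow-fed WT mouse 4 was the highest of 7 at 55.8 CPM, with the next at 24.3 CPM, and that mouse also had the highest summed macrophage (3121 CPM) and lymphocyte (3807 CPM) markers of the chow-fed mice, whose part in the value was not tested. Nupr1 in BAT WT mouse 5 was the lowest of 6 at 19.7 CPM, with the next at 33.7 CPM. Chac1 in BAT WT mouse 4 was the highest of 6 at 6.23 CPM, with the next at 2.78 CPM.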

How the results depend on the processing

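Of the 9 genes 7 were called on HFD and 5 on chow in inguinal WAT, and 4 in BAT. DESeq2 called 7, 7 and 8, one fit of all 6 groups 6, 6 and 8, and leaving out 1 mouse gave 6 to 7, 5 to 6 and 2 to 6. RLE factors, total counts as library size, no filter and leaving out mitochondrially encoded genes gave 7 each time on HFD, 5 or 6 on chow and 3 or 4 in BAT. The 3 without the filter were Atf5, Trib3 and Atf4 (adjusted p = 0.00394), with Atf3 and Ddit3 lost. No gene changed sign in these 3 comparisons under any alternative. For the difference between diets DESeq2 called 1 gene (Chac1) in place of 0, and leaving out 1 mouse gave 0 to 1. For the difference between tissues every alternative called 1, and leaving out 1 mouse gave 1 to 1. Total counts as library size took the median of all genes from 0.02 to 0.14 between diets and from -0.00 to -0.11 between tissues, and turned 3 that were not called: Cebpb between diets to 0.01, Cebpg between tissues to -0.04 and Nupr1 between tissues to -0.09. Leaving out 1 mouse turned uncalled differences in Atf3 (-0.61 to 0.27), Cebpb (-0.22 to 0.05) and Nupr1 (-0.01 to 0.14) between diets and in Cebpg (-0.03 to 0.15) and Nupr1 (-0.10 to 0.22) between tissues. Correlated pairs numbered 0, or 2 with total counts. Over all genes DESeq2 called 2754, 1116 and 714 and the fit of all 6 groups 1242, 1088 and 835, against 1886, 479 and 243. DESeq2 called 408 differences between diets, against 147, and 848 between tissues, against 485. Total counts as library size put 1821 of 2474 calls on HFD higher, against 1023 of 1886, and 221 of 408 on chow, against 301 of 479. In the difference between diets 110 of 173 calls were then higher, against 46 of 147, and in that between tissues 182 of 475, against 272 of 485. Without BAT KI mouse 6, 2 of 22 immediate early genes and 1 of 14 ATF and CREB genes rose, against 1.8% of all genes. Without chow KI mouse 4, 2 of 24 ER genes rose, against 1.73% of all genes.

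Mice of the 2 genotypes share numbers in the labels, which do not say that a number marks a shared litter or day. Deviations of same-numbered mice correlated at r from -0.244 to 0.654 in inguinal WAT on HFD, from -0.276 to 0.179 on chow and from -0.0768 to 0.432 in BAT. For 1 of 8, 0 of 6 and 3 of 6 numbers, the KI mouse correlated most with the WT mouse of its own number. The reverse direction was not examined. Since not every pair deviated together in any table, the numbers were not taken as pairing the mice, though in BAT numbers 3, 4 and 5 did (r = 0.206, 0.335 and 0.432). With a replicate block on this number, which leaves out chow WT mouse 7, 6, 5 and 4 members were called: Chac1 on HFD (adjusted p = 0.0137) and Trib3 in BAT (log2 fold change 3.30, adjusted p = 0.0264) dropped out and Atf4 in BAT came in (edgeR's quasi-likelihood test, adjusted p = 0.00481). The block moved the calls over all genes from 479 to 101 on chow and from 243 to 363 in BAT. Depth limits Chac1 most, with 13 to 441 counts in a mouse.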

Other observations

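In inguinal WAT on HFD the B cell gene Ighm fell from 877 ± 314 to 149 ± 110 CPM (SD, n = 8 each, log2 fold change -2.56, edgeR's quasi-likelihood test, adjusted p = 0.000139), the 1 lymphocyte marker of 10 that was called. Itgax was the 1 macrophage marker of 12 called (-1.44, edgeR's quasi-likelihood test, adjusted p = 0.0018), S100a8 the 1 neutrophil marker of 4 tested (-1.91, adjusted p = 0.000145) and Lum the 1 fibroblast marker of 8 (-1.39, adjusted p = 9.79e-05). Of 7 endothelial, 10 skeletal muscle and 2 tested epithelial markers 0 were called there by edgeR's quasi-likelihood test or by DESeq2, with 3, 0 and 0 at an unadjusted p below 0.05. Among 8 adipocyte genes 2 fell, with Adipoq first (-0.85, edgeR's quasi-likelihood test, adjusted p = 1.05e-05), and 2 rose, with Lipe first (0.54, adjusted p = 0.00134). Over all genes tested there, 5.24% were called lower and 6.21% higher.

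On chow none of the markers of macrophages, lymphocytes, neutrophils, skeletal muscle, fibroblasts, endothelium or white adipocytes was called by edgeR's quasi-likelihood test (16 of 52 tested at an unadjusted p below 0.05, 3 by DESeq2). In BAT only the fibroblast gene Pi16 was called by this test, with a fall of 1.62 on the log2 scale (log2 fold change -1.62, edgeR's quasi-likelihood test, adjusted p = 0.00165). There 19 of the 44 tested markers had an unadjusted p below 0.05 in that test, and 8 were called by DESeq2. Of the 8 fibroblast markers in BAT, 7 had an unadjusted p below 0.05 and 3 were called by DESeq2. Their median log2 fold change was -0.73, and 0 of the 8 were positive. Of 9 brown adipocyte genes 5 were tested in inguinal WAT, and 2 of 5 rose on each diet, Cidea by 1.55 on HFD and 3.03 on chow (edgeR's quasi-likelihood test, adjusted p = 0.000544 and 0.0056) and Cox8b by 1.04 and 2.42 (adjusted p = 0.00654 and 0.00139). The other 3 were not called, with log2 fold changes on HFD and chow of 0.55 and 2.01 for Cox7a1, 0.56 and -0.69 for Ppargc1a and 0.52 and -0.04 for Ebf2. The summed level of the 9 brown adipocyte genes ran from 59.9 to 155 CPM in chow-fed WT and from 182 to 935 CPM in chow-fed KI mice, without overlap, while Ucp1 averaged 0.205 and 0.369 CPM. In BAT 0 of these 9 genes were called (2 at an unadjusted p below 0.05, and 1 by DESeq2), and their sum ran from 9817 to 13694 CPM in WT and from 11025 to 16702 CPM in KI mice. Their part in the changes of the ISR genes was not tested.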
